A study of Mus musculus with 2 samples.

Results

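Among cells sorted from mouse tumours for CD45, a surface protein of white blood cells, 228 of 9255 barcodes met a rule for macrophages with many transcripts of Arg1 or Mmp12. Those with little Arg1, 35 in the E2 library and 22 in the placebo library, went against the macrophage label in part. Members were chosen by the raw counts of unique molecular identifiers (UMIs, which count single RNA molecules) of a few genes. A member had at least 200 genes detected, at least 10 UMIs of Mmp12 and Arg1 together and at least 2 UMIs of the macrophage genes Adgre1, Csf1r and Cd68. It also had at most 4 UMIs of Retnla, at most 1 of the division genes Mki67 and Top2a, at most 1 of the T cell genes Cd3e, Cd3d and Cd3g, and none of Gata3. The E2 library came from C57BL6\J mice that had been ovariectomised and given E2 (estradiol, the main ovarian estrogen), and 97 of its 5765 barcodes were members. The placebo library came from mice of the same strain, also ovariectomised but given placebo, and 131 of its 3490 barcodes were members. Live CD45+ cells had been sorted, and 3′ ends of their RNA were sequenced in droplets (10x Genomics). The sources used here name neither the tumour, the dose of E2, the age of the mice nor how many were pooled. Each group is 1 library, so no test was run and no difference below could be checked in replicates.

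Macrophages that enter tumours arise mostly from blood monocytes, and the wound-like or oxygen-poor parts of a tumour are known for macrophages with high Arg1. Arg1 encodes arginase 1, which splits arginine into ornithine and urea and so takes arginine away from nitric oxide synthesis and from T cells. Mmp12 encodes macrophage elastase, a protease that cuts elastin and other matrix proteins. Of the other marker genes, Slc7a2 encodes a membrane carrier of arginine, Ccl24 a chemokine that draws eosinophils, and Spp1 osteopontin, a secreted matrix protein that binds integrins and CD44. Arg1 (ENSMUSG00000019987) lies at chr10:24915221-24927484 on the minus strand and Mmp12 (ENSMUSG00000049723) at chr9:7344381-7369499 on the plus strand of GRCm38.

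The E2 library was the deeper one, with 52628133 UMIs and a median of 8049 per barcode, against 24545595 UMIs and a median of 5128 in the placebo library. The members differed less, with medians of 13402 UMIs in the E2 library and 10576 in the placebo library, and their summed UMIs were 1417145 and 1575547. The 37 mitochondrially encoded features held 0 UMIs, so they gave no measure of cell quality. The libraries shared 95 barcode sequences, and none of these was a member in either library.

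Members took a smaller share of the E2 library than of the placebo library. They were 1.68% of E2 barcodes (exact Clopper-Pearson 95% interval 1.37 to 2.05%) and 3.75% of placebo barcodes (3.15 to 4.44%), a 2.23-fold lower share with E2 (1.70 to 2.93). Among the barcodes that met every condition other than the one on Mmp12 and Arg1, members were 97 of 2591 in the E2 library (3.74%) and 131 of 1006 in the placebo library (13.0%), 3.48-fold lower (2.65 to 4.57). The intervals cover counting error only. A fixed count of raw UMIs is reached more easily in a deep cell, which holds for the rule's upper limits as well as its lower ones. The E2 library was the deeper one, and the part of depth in these shares was not tested. Only 3778 of 5765 E2 and 1800 of 3490 placebo barcodes held the 5000 UMIs needed to thin each to that number. Of these deeper barcodes, with a threshold of 5, members were 2.28% in the E2 library and 6.50% in the placebo library.

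The values on either side of the threshold formed a continuous range. Just inside it, with 10 to 14 UMIs, lay 19 E2 and 17 placebo members; just outside, with 5 to 9, lay 44 E2 and 41 placebo barcodes. Members with at least 50 UMIs numbered 28 in the E2 library and 40 in the placebo library. The barcodes just inside had 1442 CPM of Ccl24 (UMIs of the gene scaled to a common total per set) in the E2 library and 2038 CPM in the placebo library. Those just outside had 977 CPM in the E2 library and 855 CPM in the placebo library. For Spp1 the inside band had 2350 CPM in the E2 library and 1012 CPM in the placebo library, and the outside band 1714 CPM and 1333 CPM, in the same order.

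The members carried macrophage markers, though less of them than other macrophages or Ly6c2 monocytes did. Of the 12 genes of the macrophage list the rule required 3 (Adgre1, Csf1r and Cd68). The other 9 were also detected in both libraries, at a summed 15067 CPM in E2 members and 9061 CPM in placebo members. Macrophages with C1q but little Arg1 or Mmp12, 758 barcodes in the E2 library and 196 in the placebo library, had 40733 CPM and 29848 CPM of these 9. Monocytes with Ly6c2 and little C1q, 394 and 114 barcodes, had 23851 CPM and 18231 CPM. Markers of other cell types were low. The rule limited the 3 Cd3 genes of the T cell list, and the other 6 summed to 4.23 CPM in E2 and 3.81 CPM in placebo members, against 2606 CPM and 2848 CPM in T cells. Of the B cell list Ms4a1 and Pax5 were at 0 in both libraries, and of the NK list Ncr1, Nkg7, Gzma, Eomes and Prf1. The remaining lists, other than those of monocytes, other macrophages, Retnla Ear2 myeloid cells, dendritic cells and dividing cells, lay between 0.635 and 407 CPM. The neutrophil list had 107 CPM in E2 members and 407 CPM in placebo members, and its placebo value rested on few cells: 92.1% of the 239 placebo UMIs of S100a9 came from 1 member.

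**Figure D1:**
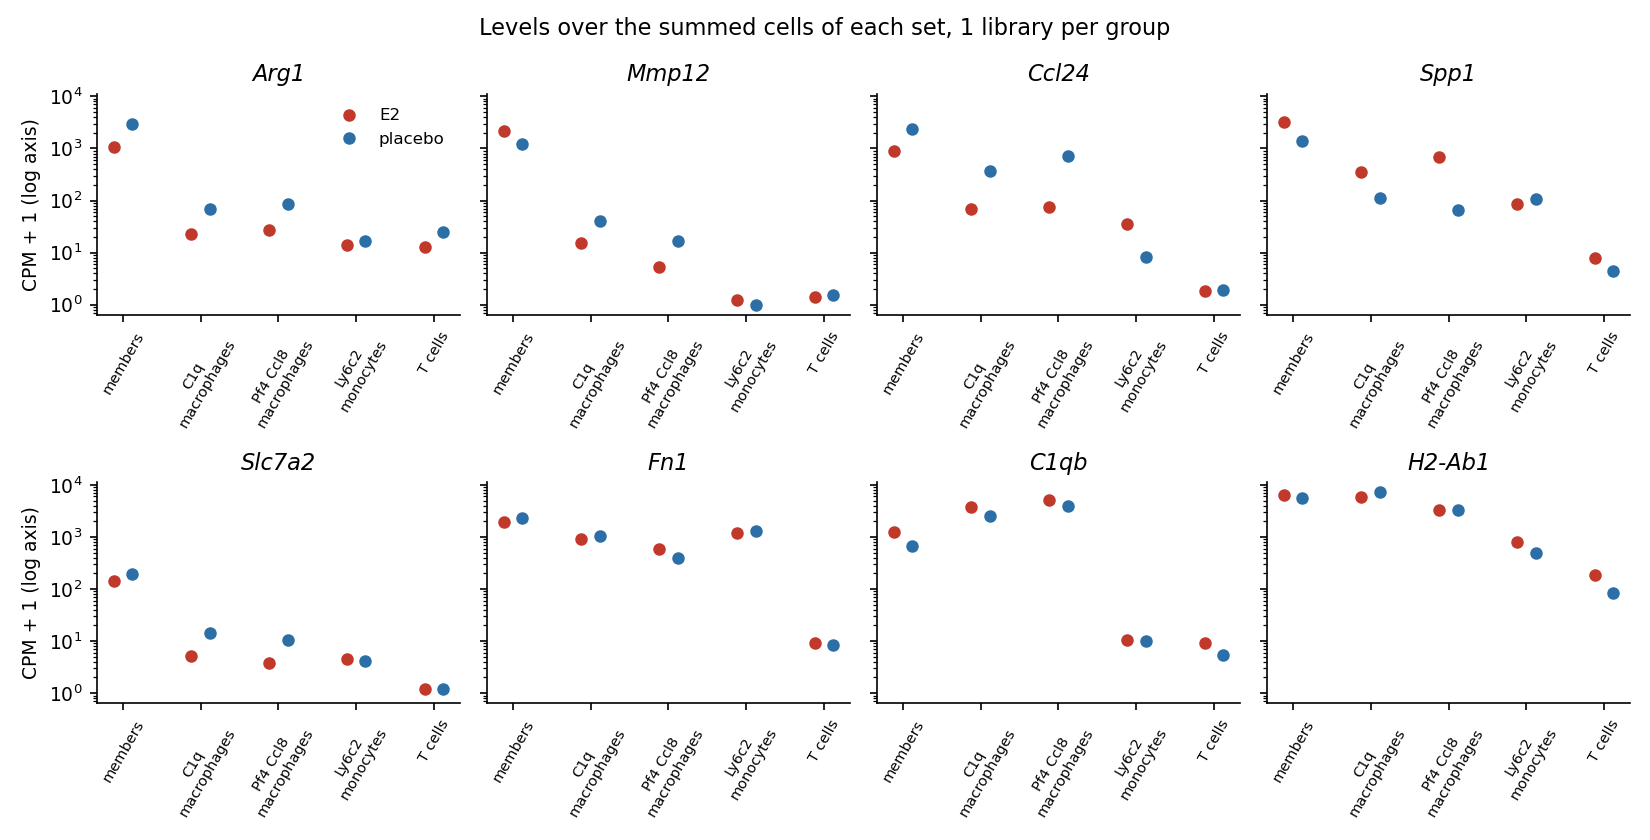
Level in CPM + 1 (log axis) of 8 genes over the summed cells of each set, with the E2 library in red left of the placebo library in blue. The 5 marker genes, Arg1 to Slc7a2, are higher in the members than in each other set of both libraries, while C1qb is lower in members than in C1q macrophages.

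The 5 marker genes stood far above their level in the other sets, as the rule fixes for Arg1 and Mmp12. Members held 64.6% of all Arg1 UMIs of the E2 library and 71.9% of those of the placebo library, and 63.6% and 58.1% of the Mmp12 UMIs. Slc7a2, which the rule did not use, had 140 CPM in E2 members and 197 CPM in placebo members, against 4.11 CPM and 13.2 CPM in C1q macrophages. Ccl24 had 906 CPM in E2 members and 2329 CPM in placebo members, against 69.2 CPM and 362 CPM in C1q macrophages. Spp1 had 3233 CPM in E2 members and 1366 CPM in placebo members, against 348 CPM and 112 CPM in C1q macrophages. Single cells weigh on these sums: Spp1 ranged up to 1611 UMIs in 1 E2 member and 685 UMIs in 1 placebo member, with medians of 1 and 0.

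Set against C1q macrophages in the same library, the members were richer in matrix, glycolysis and hypoxia transcripts and poorer in those for clearing dead cells. This contrast lies close to the one that chose the members, so its values describe them and support nothing. The 15 highest genes, ranked by the smaller ratio of both libraries, included Cxcl3, a neutrophil-attracting chemokine, with 476 CPM in E2 members against 12 CPM in E2 C1q macrophages and 1706 CPM against 1.65 CPM in the placebo library. AA467197, also known as Nmes1, was at 1669 CPM in E2 members against 50.1 CPM in E2 C1q macrophages. In the placebo library it was at 1899 CPM in members against 140 CPM. Others were Ccl17, a chemokine for T cells, Mmp13, a collagenase, Sdc1, a matrix-binding proteoglycan, Inhba, an activin subunit, and F10, coagulation factor X. Also among them were Slc7a11, the cystine carrier, Slpi, a protease inhibitor, Pdpn, Plet1 and Flt1, a receptor for vascular endothelial growth factor. The genes differed in how many members carried them. F10 was found in 84 E2 and 112 placebo members. Mmp13 was found in only 13 and 11, Inhba in 10 and 34, Plet1 in 11 and 21, and Cxcl3 in 22 and 33. Single members held 46.8% of the E2 UMIs of Mmp13 and 61.9% of those of Inhba. Among the 10 lowest were Gas6, a bridge between dying cells and phagocytes, Fcrls, Cx3cr1, the fractalkine receptor, the transcription factor gene Maf, and Apoe, the lipid carrier. Apoe had 4753 CPM in E2 members against 20045 CPM in E2 C1q macrophages, and 2329 CPM against 14462 CPM in the placebo library.

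By list, 18 of 18 hypoxia response genes and 14 of 14 glycolysis genes were higher in members than in C1q macrophages in each library, 12 of each by at least 1.5-fold in both. Over all 8935 features compared, 4.05% were higher and 3.97% lower by 1.5-fold in both libraries. The median log2 ratio of the hypoxia list was 0.93 in the E2 library and 1.5 in the placebo library, and that of all features −0.03 and −0.04. Of 19 genes for matrix, adhesion and surface proteins 12 were higher and 1 lower by that measure. Of 18 genes for C1q and phagocytic receptors 10 were lower and none higher, where C1q itself had chosen the set compared. Against Ly6c2 monocytes, in contrast, 10 of 15 genes of the C1q and phagocytic list were higher in members in both libraries and 1 was lower, where 5.77% of 8338 features were higher and 6.13% lower; those monocytes were chosen for little C1q. Against macrophages rich in Pf4 and Ccl8, 270 barcodes in the E2 library and 46 in the placebo library, 13 of 14 glycolysis genes were higher in both libraries, where 6.83% of 7609 features were.

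Most members were rich in either Arg1 or Mmp12 and few in both. The rule asks for 10 UMIs of both genes together, so no member could be poor in both, and these counts describe the members without showing a relation between the genes. In the E2 library 42 members had at least 5 UMIs of Arg1 but under 5 of Mmp12, 39 had the reverse and 16 had both. In the placebo library the numbers were 86, 26 and 19. The median member had 10 UMIs of Arg1 in the E2 library and 18 in the placebo library, with highest values of 96 and 247. For Mmp12 the medians were 10 and 0, with highest values of 438 and 175. Arg1-rich members, with at least 5 UMIs of Arg1, were 58 of 97 in the E2 library (59.8%, 49.3 to 69.6%) and 105 of 131 in the placebo library (80.2%, 72.3 to 86.6%). Arg1-poor members, with 1 or 0, were 35 and 22, and only 4 in each library lay between. The Arg1-poor members were the deeper ones, with median UMIs of 16230 in the E2 library and 19498.5 in the placebo library, against 11389 and 9808 for Arg1-rich members.

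**Figure D2:**
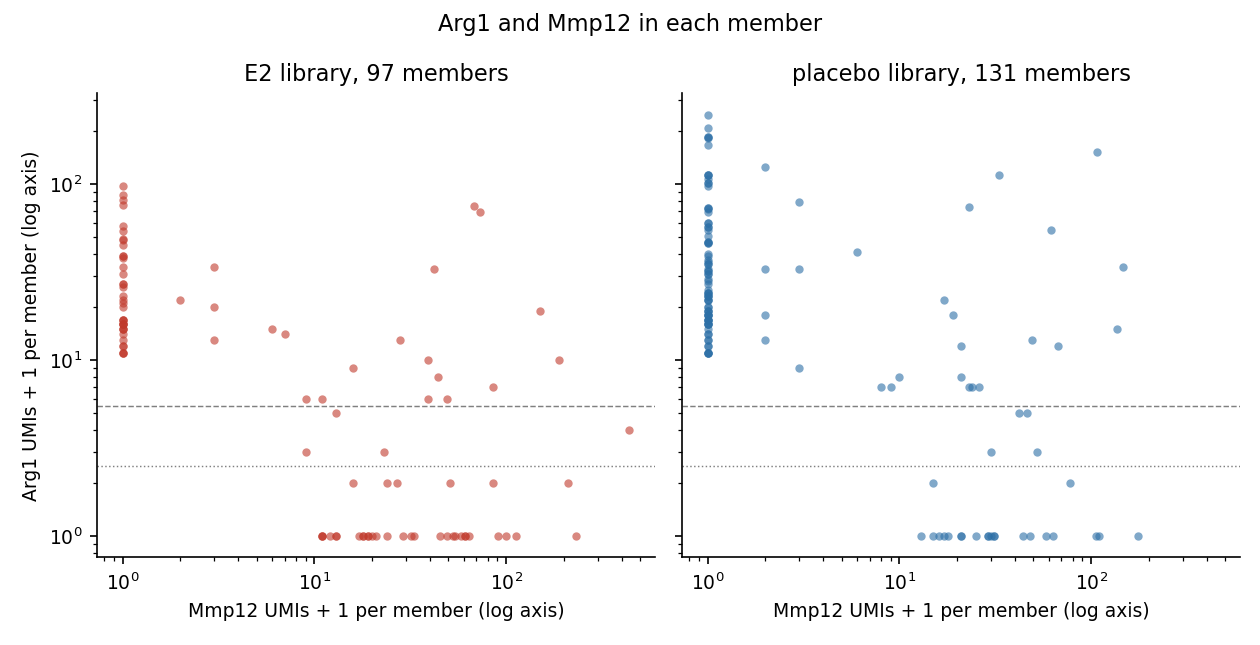
Arg1 against Mmp12 UMIs + 1 in each member (log axes), with the E2 library left of the placebo library. Each point is 1 member; the dashed line marks the lower limit of Arg1-rich members (5 UMIs) and the dotted line the upper limit of Arg1-poor members (1 UMI). Most points lie near an axis, and the 97 E2 members divide more evenly between the axes than the 131 placebo members.

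Arg1-rich members carried more transcripts of the 8 classical monocyte markers. These summed to 3079 CPM in Arg1-rich against 1121 CPM in Arg1-poor E2 members, and to 3402 CPM against 809 CPM in the placebo library. Chil3, a chitinase-like secreted protein, had 933 CPM in Arg1-rich against 11.9 CPM in Arg1-poor E2 members. In the placebo library it had 552 CPM in Arg1-rich against 2.38 CPM in Arg1-poor members. Plac8, a gene high in classical monocytes, had 515 CPM in Arg1-rich against 6.77 CPM in Arg1-poor members of the E2 library, and 856 CPM against 21.4 CPM in the placebo library. Ly6c2, a surface marker of classical monocytes, had 138 CPM in Arg1-rich against 3.39 CPM in Arg1-poor E2 members. In the placebo library it had 178 CPM against 0 UMIs, which allows up to 7.14 CPM. F13a1, Timp1, Slpi, Vcan, Thbs1, Cxcl10 and Rsad2 completed the 10 highest.

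Arg1-poor members carried more MHC class II transcripts. Mgl2, a galactose-binding lectin of macrophages and some dendritic cells, had 177 CPM in Arg1-rich against 908 CPM in Arg1-poor members of the E2 library, and 119 CPM against 1109 CPM in the placebo library. Its near copy Clec10a makes the split of reads between the genes uncertain. Epcam, an epithelial adhesion gene also known from Langerhans cells, had 17.8 CPM in Arg1-rich against 227 CPM in Arg1-poor E2 members. In the placebo library it had 0.905 CPM against 388 CPM. Plet1, Asgr2, Gfra2, Tcea3, Amica1, Cd209a, Slc27a3 and Lmo1 were the other 8 lowest. All 8 MHC class II genes measured were lower in Arg1-rich members by at least 1.5-fold in both libraries, with medians of −1.23 and −1.58, where 4.09% of 6110 features were lower. Of 16 type I interferon response genes 12 were higher in both libraries, where 5.79% of features were, and of 18 hypoxia genes 8 were higher and none lower.

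The Arg1-poor members went against the macrophage label in part, most of all in the placebo library. Their 12 macrophage markers summed to 11768 CPM in the E2 library and 3678 CPM in the placebo library, against 18074 and 12413 CPM in Arg1-rich members. C1qa and C1qb, which belong to these markers, did not follow the sum. In the E2 library C1qa had 1028 CPM in Arg1-poor and 1044 CPM in Arg1-rich members, and C1qb 1253 and 1182 CPM. In the placebo library C1qa had 676 and 689 CPM and C1qb 676 and 666 CPM, in the same order. The conventional dendritic cell list was at 398 CPM in Arg1-poor E2 members and 419 CPM in Arg1-poor placebo members, with Xcr1 at 0 in both, against 107 and 60.6 CPM in Arg1-rich members. Cd209a alone gave 193 and 107 CPM of the Arg1-poor sums. C1q macrophages had 260 CPM of this list in the E2 library and 171 CPM in the placebo library. T cells had 447 CPM and 563 CPM, with all 12 genes of the list detected. T cells are thus no empty background for this list, and their values do not bear on what the Arg1-poor members are. Arg1-poor members are called by their Arg1 level below and are given no cell type. Spp1 had 1380 CPM in Arg1-poor members of the E2 library and 42.9 CPM in those of the placebo library, and Apoe 2868 CPM and 233 CPM. Counts per cell, with limits chosen after the values were seen, gave the same picture for Mgl2, Plet1 and Spp1. At least 2 UMIs of the C1q genes were found in 80.0% of Arg1-poor and 46.6% of Arg1-rich E2 members. In the placebo library the shares were 63.6% and 34.3%, and the Arg1-poor members were the deeper ones in both libraries. At least 3 UMIs of Mgl2 were found in 25 of 35 Arg1-poor E2 members (71.4%) and 20 of 22 Arg1-poor placebo members (90.9%). Plet1 was found in 8 of 35 E2 members (22.9%) and 17 of 22 placebo members (77.3%). At least 5 UMIs of Spp1 were found in 10 of 35 E2 members and in 0 of 22 placebo members, which allows a share of up to 15.4% (exact 95% interval).

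**Figure D3:**
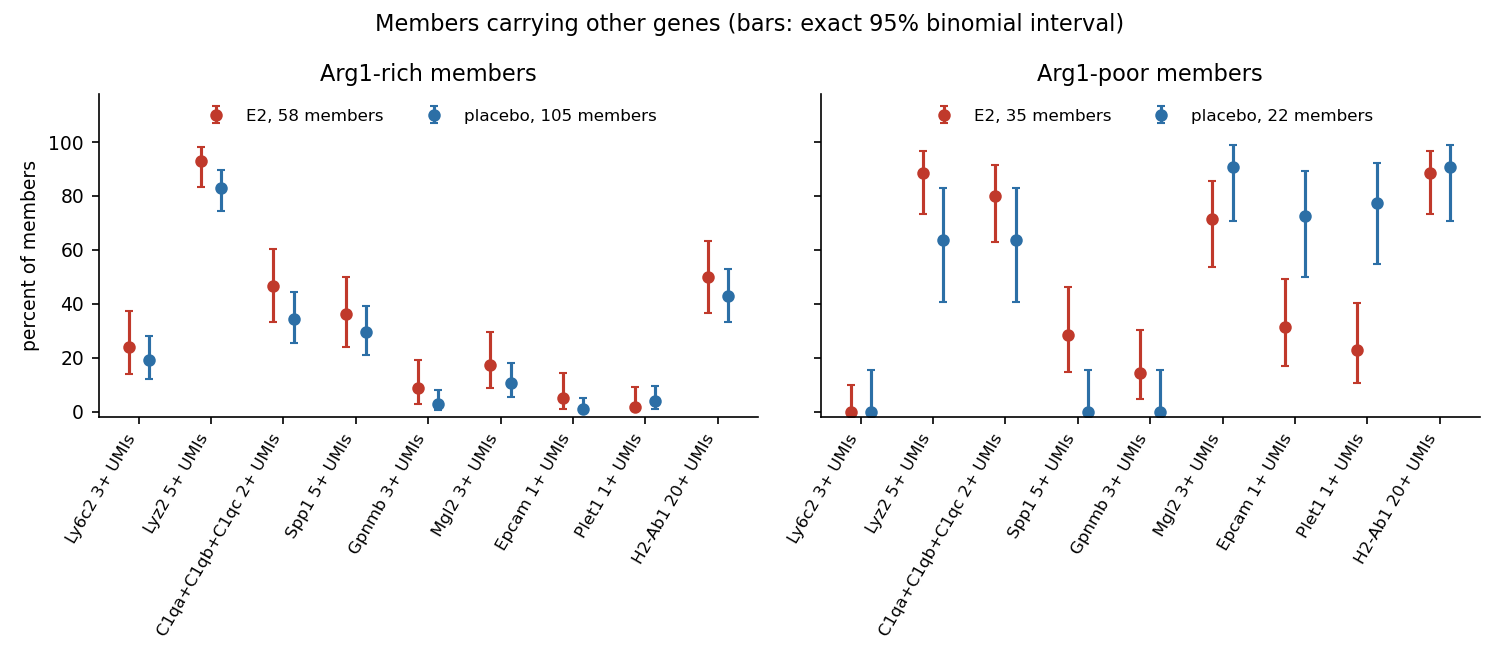
Percent of Arg1-rich (left) and Arg1-poor (right) members that carried at least the stated UMIs of 9 genes or gene sums, with the E2 library in red left of the placebo library in blue and exact 95% binomial intervals that cover counting error only. Among Arg1-poor members, Epcam was found in 31.4% in the E2 library and 72.7% in the placebo library, and Gpnmb at 3 or more UMIs in 14.3% and 0%.

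Between the libraries, members of the E2 library had more transcripts of many lipid handling and lysosome genes and fewer of most hypoxia and classical activation genes, while chemokine and growth factor genes went both ways. Ratios are log2((CPM + 10)/(CPM + 10)), E2 over placebo, which understates the change of low genes. Of 8485 features with at least 20 UMIs over both libraries, 259 were higher (3.05%) and 557 lower (6.56%) by 1.5-fold or more in E2 members, and the median was −0.06. Without regard to size, 58.0% of these features were lower and 42.0% higher. Because the share of Arg1-rich members differed, values within Arg1-rich and Arg1-poor members stand beside those of the leading genes. Of 140 genes of the lists or the named ones that passed 1.5-fold over all members, 39 had the other sign within Arg1-poor members, 17 of them past 1.5-fold, and 2 within Arg1-rich members. In Arg1-rich and Arg1-poor members 5.75% and 10.4% of the same features were higher, and 10.1% and 12.3% lower. The rule's genes Arg1 and Mmp12 are among the 140, and Arg1, whose level defined the strata, is among the 39. Scaled by the median gene ratio, 339 features were higher and 453 lower over all members.

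The highest named genes included Gpnmb, Trem2, Pf4 and Igf1. Gpnmb, a surface glycoprotein of lipid-laden macrophages, had 274 CPM in E2 members and 34.3 CPM in placebo members, 7.99-fold higher (5.99 to 10.8). It was found in 16 E2 and 12 placebo members, so few cells carried it. Trem2, a receptor for lipids and cell debris, had 397 CPM in E2 members and 112 CPM in placebo members, 3.56-fold higher (2.997 to 4.24). Trem2 was found in 69 of 97 E2 members and 60 of 131 placebo members, and after thinning to 2000 UMIs in 37.1% and 18.3%, against 0.248% and 0.203% of T cells, which were chosen to hold no UMI of Adgre1, Csf1r or Cd68. The thinned E2 share was also the higher one in C1q macrophages, at 65.1% against 50.5%, and in Ly6c2 monocytes, at 23.9% against 7.02%. The log2 ratio of Trem2 was 1.49 in Arg1-rich and 2.84 in Arg1-poor members.

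Pf4, platelet factor 4, had 536 CPM in E2 members and 110 CPM in placebo members, 4.88-fold higher (4.14 to 5.80). After thinning, Pf4 was found in 20.6% of E2 and 6.11% of placebo members. In C1q macrophages the shares were 48.5% and 28.7%, and in Ly6c2 monocytes 0.761% and 0.877%. Igf1, insulin-like growth factor 1, had 205 CPM in E2 members and 47.0 CPM in placebo members, 4.36-fold higher (3.37 to 5.70). Both Pf4 and Igf1 were higher in the E2 library in each stratum of members. Igf1 had 183 CPM in Arg1-poor E2 members and 0 UMIs in Arg1-poor placebo members. Ccl22, a chemokine for T cells with the receptor CCR4, ranked first at 144 CPM in E2 members and 8.25 CPM in placebo members. It was found in 6 members of each library, and 62.7% of its E2 UMIs came from 1 member. Syngr1, Ccl5, Fabp4, Gdf15 and Rhoc were the other genes higher in both strata. Of these, Ccl5 had 51.5% of its E2 UMIs in 1 member, and Syngr1 was found in 12 E2 and 4 placebo members. Asgr2 was also among the highest over all members, but had only 4 UMIs in Arg1-rich members of each library. It had 84.1% of its placebo UMIs in 1 member and was lower in E2 members with a threshold of 20 UMIs, at a ratio of −1.03. Mfge8, a bridge to dying cells, was higher over all members at 636 CPM in the E2 library and 138 CPM in the placebo library, but lower within Arg1-poor members, at 136 CPM and 448 CPM. It was found in 28 E2 and 33 placebo members, and 45.6% of its E2 UMIs came from 1 member. Without the top members its log2 ratio was 1.55.

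**Figure D4:**
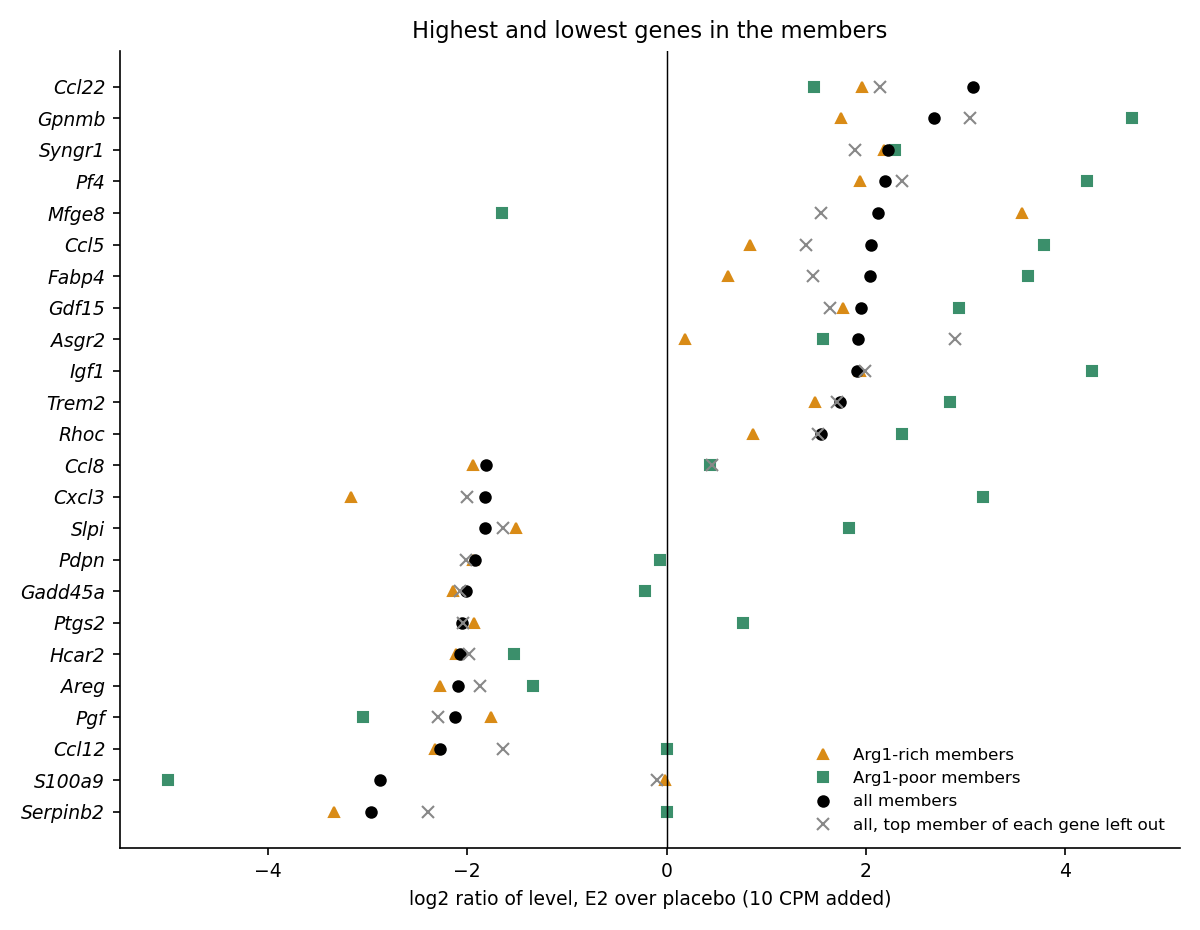
Log2 ratio of level (10 CPM added), E2 over placebo, of the 12 highest and 12 lowest named genes, over all members, within Arg1-rich and Arg1-poor members, and with the member that held most UMIs of the gene left out in each library. Ratios of genes with 0 UMIs in a group depend on the CPM added. Most genes keep their side of 0; S100a9 lies near 0 and Ccl8 above 0 without the top member, and Mfge8, Ptgs2, Slpi, Cxcl3 and Ccl8 lie on the other side in Arg1-poor members.

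Genes of the hypoxia response were lower in E2 members as a group. Cells short of oxygen stabilise the factor HIF-1α, which binds a short element near genes for glucose uptake, glycolysis and pH control. Of 19 hypoxia genes measured 17 were lower and 2 higher, 12 were lower by at least 1.5-fold, and the median log2 ratio was −0.74 against −0.06 over all features. Hilpda, a lipid droplet protein that blocks the lipase ATGL, had 87.5 CPM in E2 members and 312 CPM in placebo members, 3.56-fold lower (2.92 to 4.37). Egln3, an oxygen-sensing prolyl hydroxylase, had 21.2 CPM in E2 members and 76.8 CPM in placebo members, 3.63-fold lower (2.42 to 5.61). Slc2a1, the glucose carrier GLUT1, had 96.0 CPM in E2 members and 222 CPM in placebo members, 2.31-fold lower (1.89 to 2.84). Ero1l, an oxidase of protein folding, was lower at 73.4 CPM in E2 and 213 CPM in placebo members, Bnip3, a mitophagy receptor, at 74.8 and 169 CPM, and Hif1a at 191 and 398 CPM.

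Within Arg1-rich members 17 of 19 hypoxia genes were lower in the E2 library, with a median of −0.70. Within Arg1-poor members 11 were lower and 8 higher with a median of −0.06. Hilpda had 110 CPM in Arg1-rich E2 members and 416 CPM in Arg1-rich placebo members, against 64.3 CPM and 54.8 CPM in Arg1-poor members. The difference between the strata was not tested. The same 19 genes had a median of −0.12 in C1q macrophages, −0.04 in Ly6c2 monocytes and −0.19 in T cells. After thinning, Hilpda was found in 16.5% of E2 members and 31.3% of placebo members, against 19.0% and 15.3% of T cells, so its E2 share was not above that of T cells. Of 14 glycolysis genes all were lower in E2 members, and the median was −0.35. Past 1.5-fold were Hk1, at 37.4 CPM in E2 and 78.1 CPM in placebo members, and Hk2, at 224 and 358 CPM, both hexokinases. In Arg1-poor members 10 of the 14 were higher in the E2 library, with a median of 0.17.

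Promoters of 4 hypoxia genes are shown because these genes were lower together in E2 members. They are the 4 with the lowest ratios among genes with an entry in the promoter table; Ero1l, with a ratio below those of Slc2a1 and Bnip3, had none. Each window runs 5′ to 3′ on the gene's strand, from 250 bases before to 50 after the start, from RefSeq on GRCm38.p6. Capitals mark ACGTG (the core of the hypoxia element) or TGANTCA (an AP-1 element) on either strand. The windows are chr6:29272238-29272537 (plus strand) for Hilpda, chr12:54203825-54204124 (minus) for Egln3, chr4:119108495-119108794 (plus) for Slc2a1 and chr7:138909457-138909756 (minus) for Bnip3.
Hilpda: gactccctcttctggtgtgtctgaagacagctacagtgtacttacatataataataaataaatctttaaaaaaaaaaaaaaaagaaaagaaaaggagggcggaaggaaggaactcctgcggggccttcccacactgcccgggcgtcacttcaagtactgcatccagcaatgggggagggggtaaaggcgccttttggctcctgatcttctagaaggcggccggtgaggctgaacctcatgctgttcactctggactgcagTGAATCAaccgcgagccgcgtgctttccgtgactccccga
Egln3: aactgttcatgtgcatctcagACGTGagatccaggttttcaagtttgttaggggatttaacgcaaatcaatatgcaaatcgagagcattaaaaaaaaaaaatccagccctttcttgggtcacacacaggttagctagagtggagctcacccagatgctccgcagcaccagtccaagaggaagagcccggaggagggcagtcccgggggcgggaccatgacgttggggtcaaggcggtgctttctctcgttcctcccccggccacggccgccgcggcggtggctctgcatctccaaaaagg
Slc2a1: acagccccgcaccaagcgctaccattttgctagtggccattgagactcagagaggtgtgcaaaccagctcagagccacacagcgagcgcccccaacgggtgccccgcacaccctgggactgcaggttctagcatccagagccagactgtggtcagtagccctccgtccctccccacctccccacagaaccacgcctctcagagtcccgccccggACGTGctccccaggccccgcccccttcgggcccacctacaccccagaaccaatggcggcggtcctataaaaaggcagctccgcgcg
Bnip3: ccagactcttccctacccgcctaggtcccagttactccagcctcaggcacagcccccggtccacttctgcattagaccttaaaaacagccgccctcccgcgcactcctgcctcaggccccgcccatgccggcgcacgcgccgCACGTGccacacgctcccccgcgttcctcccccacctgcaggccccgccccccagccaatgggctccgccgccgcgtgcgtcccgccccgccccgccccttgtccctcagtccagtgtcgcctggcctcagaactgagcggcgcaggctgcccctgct
The Hilpda window holds 1 TGANTCA and 0 ACGTG, the Egln3 and Slc2a1 windows 1 ACGTG each and the Bnip3 window 2. The 2 in the Bnip3 window lie on opposite strands and overlap within the palindrome CACGTG, so they are 1 site. No motif overlaps one of another kind in these windows, and none holds the STAT6-type element, also sought on both strands. Of 18 hypoxia genes with an entry 11 had ACGTG in the window, as did 6 of 14 glycolysis genes. Over all 32851 windows 19.6% held ACGTG, 7.81% TGANTCA and 6.95% the STAT6-type element. Of the 18 hypoxia windows 1 held TGANTCA and 1 the STAT6-type element. Bnip3l, Ndrg1 and Bhlhe40 had no entry either.

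**Figure D5:**
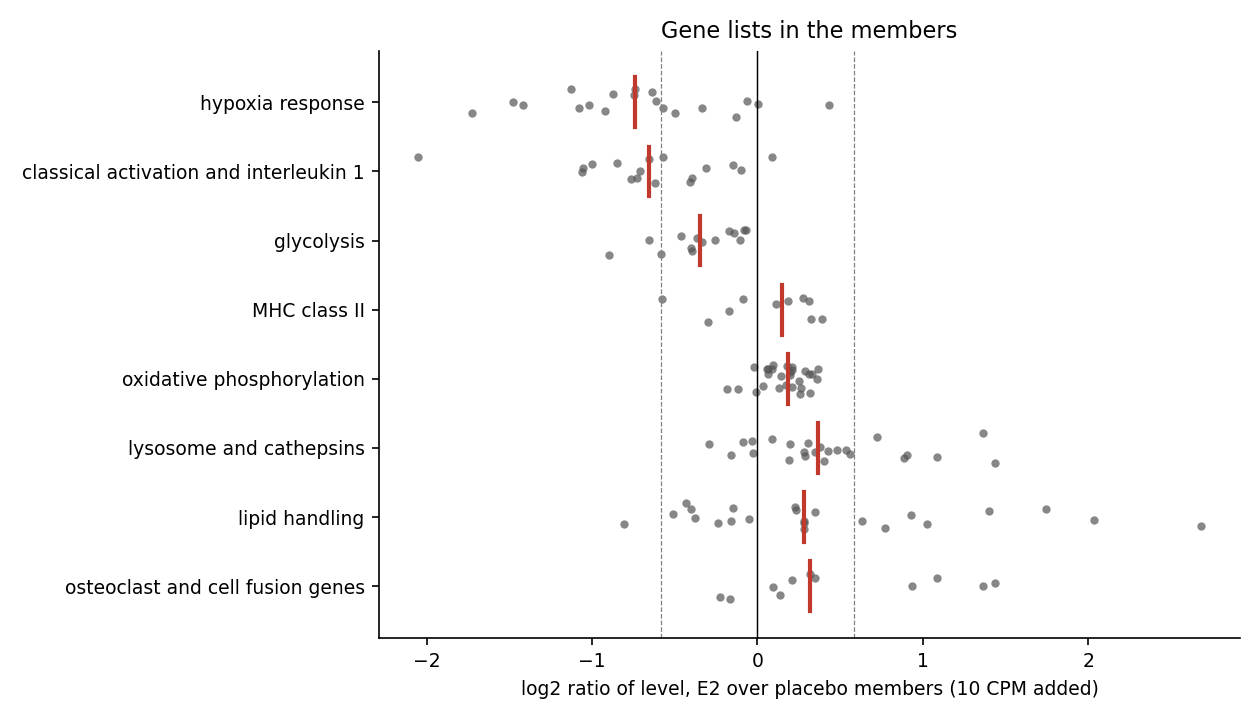
Log2 ratio of level (10 CPM added), E2 over placebo members, of each gene in 8 lists; each point is 1 gene, red bars are list medians and dashed lines mark 1.5-fold. The hypoxia and interleukin 1 lists lie mostly left of 0, with medians of −0.74 and −0.65, and the lysosome list mostly right of 0, with a median of 0.37.

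Genes of classical activation and interleukin 1 were also mostly lower in E2 members. Of 17 measured 16 were lower and 1 higher, 10 were lower by at least 1.5-fold, and the median was −0.65. Ptgs2, the inducible cyclooxygenase of prostaglandin synthesis, had 102 CPM in E2 members and 452 CPM in placebo members, 4.45-fold lower (3.71 to 5.36), and after thinning was found in 10.3% and 27.5%, against 1.61% and 0.508% of T cells. Il1b, interleukin 1β, had 1593 CPM in E2 members and 3200 CPM in placebo members, 2.01-fold lower (1.91 to 2.11). Il6, Fpr2, Tlr2, Il1a and Tnf were lower by log2 ratios of −1.06, −1.05, −0.85, −0.76 and −0.73. Within Arg1-poor members 8 were lower and 8 higher, with a median of 0. Il1a and Tnf were higher there, at log2 ratios of 1.02 and 0.55, and Ptgs2 was at 47.4 CPM in the E2 library and 23.8 CPM in the placebo library. Of the 24 immediate-early and dissociation stress genes 18 were lower, 4 of them past 1.5-fold, with a median of −0.15, beside −0.06 and 58.0% lower over all features. The part of cell handling in these results was not tested.

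Among chemokines both directions were common, with 7 of 20 higher and 8 lower by at least 1.5-fold and a median of 0.08. Ccl24 was 2.57-fold lower (2.41 to 2.74) and was lower in both strata. Cxcl3 had 476 CPM in E2 members and 1706 CPM in placebo members, but within Arg1-poor members it had 704 CPM and 69.0 CPM. Ccl17 was higher over all members at 1409 CPM in E2 and 708 CPM in placebo members, but lower within Arg1-poor members, at 1504 CPM and 2221 CPM. Ccl12 was at 7.76 CPM in E2 and 76.2 CPM in placebo members, in 8 members of each library, and 49.2% of its placebo UMIs came from 1 member. Ccl8 was lower at 11.3 CPM in E2 and 64.7 CPM in placebo members, yet 97.1% of its placebo UMIs came from 1 member and without the top members its ratio was 0.46.

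Growth factor genes were likewise divided, with 4 of 15 higher and 4 lower and a median of −0.05. Gdf15 was at 55.7 CPM in E2 and 6.98 CPM in placebo members, and Gdf3 at 41.6 and 1.27 CPM. Areg, the EGF-family factor amphiregulin, was lower at 19.0 CPM in E2 and 114 CPM in placebo members, Inhba at 59.3 and 211 CPM, and Hbegf, another EGF-family factor, at 45.2 and 138 CPM. Few members carried these genes: Gdf15 was found in 9 E2 and 5 placebo members, and Areg in 8 and 10. Single members held 51.9% of the E2 and 47.2% of the placebo UMIs of Areg, and 61.9% of the E2 UMIs of Inhba. Without the top members the log2 ratios were 1.64 for Gdf15 and −1.87 for Areg. Within Arg1-poor members Inhba and Hbegf were few and lay the other way, with 16.9 CPM of Inhba in the E2 library against 0 UMIs in the placebo library, and 13.5 CPM of Hbegf against 4.76 CPM. Pgf, placental growth factor, outside the list, was lower at 10.6 CPM in E2 and 80.0 CPM in placebo members, 7.55-fold (4.41 to 13.9).

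The lowest named genes outside these lists were Hcar2, Gadd45a, Slpi and S100a9. Hcar2, a receptor for niacin and ketone bodies, had 5.65 CPM in E2 members and 55.9 CPM in placebo members, and was found in 6 and 34 members. Gadd45a, a stress-induced gene of growth arrest, had 12.7 CPM in E2 and 81.9 CPM in placebo members. Slpi had 369 CPM in E2 and 1329 CPM in placebo members, but 59.3 CPM and 9.52 CPM within Arg1-poor members. S100a9, a neutrophil protein, had 12 CPM in E2 and 152 CPM in placebo members, and its ratio was −0.10 without the top members.

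Lipid handling genes were more often higher than lower in E2 members, with 14 of 23 higher and 8 of these by at least 1.5-fold, against 1 lower by that measure, and a median of 0.28. Beside Gpnmb and Trem2 they included Fabp4, a fatty acid carrier, at 57.2 CPM in E2 and 6.35 CPM in placebo members, where 56.8% of the E2 UMIs came from 1 member. Lpl, lipoprotein lipase, had 1145 CPM in E2 members and 427 CPM in placebo members, 2.68-fold higher (2.45 to 2.94). Apoe was 2.04-fold higher (1.96 to 2.13), at 4753 CPM in E2 and 2329 CPM in placebo members. Msr1, a scavenger receptor, was the lower one, at 146 CPM in E2 and 263 CPM in placebo members, though not within Arg1-poor members, at 84.7 CPM and 42.9 CPM. The median was 0.07 within Arg1-rich members and 1.12 within Arg1-poor members, where 21 genes were higher and 1 lower. The same genes had a median of 0.12 in C1q macrophages, −0.01 in Pf4 Ccl8 macrophages, 0.04 in Ly6c2 monocytes and −0.01 in T cells.

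Of 24 lysosome and cathepsin genes 19 were higher, 6 of them past 1.5-fold, and the median was 0.37. The median of these genes was 0.21 in Ly6c2 monocytes, where 18 were higher. It was 0.03 in C1q macrophages, −0.08 in Pf4 Ccl8 macrophages and −0.01 in T cells. Ctsk, the collagen-cutting cathepsin K of osteoclasts, had 59.98 CPM in E2 members and 15.9 CPM in placebo members, 3.78-fold higher (2.40 to 6.16), in 19 and 8 members. Ctsd, cathepsin D, had 761 CPM in E2 and 407 CPM in placebo members. Of 11 osteoclast and cell fusion genes 9 were higher, 4 by at least 1.5-fold: Ctsk, Atp6v0d2, a proton pump subunit, Acp5, tartrate-resistant acid phosphatase, and the tetraspanin gene Cd81. Ctsk, Atp6v0d2 and Acp5 also stand in the lysosome list, so the 2 lists overlap. Ctsk had 107 CPM in Arg1-poor members of the E2 library and 0 UMIs in those of the placebo library, against 26.0 CPM and 21.7 CPM in Arg1-rich members. Of 28 oxidative phosphorylation genes 24 were higher with a median of 0.19, and none passed 1.5-fold; their median was 0.21 in T cells and 0.08 in C1q macrophages.

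In the arginine list 3 of 18 genes were lower and 1 higher by 1.5-fold, with a median of −0.16. Arg1 is 1 of the 3 lower, and its direction is not read as a result. Arg1 itself, which chose the members, had 2086 CPM in Arg1-rich E2 members and 4241 CPM in Arg1-rich placebo members. Nos2, which makes nitric oxide from arginine, had 4 UMIs in E2 and 7 UMIs in placebo members. Slc7a2 was at 140 CPM in E2 and 197 CPM in placebo members. Among 14 matrix proteases and inhibitors 5 were lower and 2 higher, with a median of −0.17. Mmp12, which also chose the members, is 1 of the 2 higher. Serpinb2, an inhibitor of plasminogen activators, had 1 UMI in E2 members and 116 UMIs in 13 placebo members, 104-fold lower (18.4 to 4156). That fold rests on the 1 E2 UMI, and 42.2% of the placebo UMIs came from 1 member. Without the top members the log2 ratio of Serpinb2 was −2.39. Timp1 was at 107 CPM in E2 and 323 CPM in placebo members, 3.01-fold lower (2.51 to 3.64). Among 19 genes for matrix, adhesion and surface proteins 5 were lower and 3 higher, with a median of −0.33. Pdpn, podoplanin, was at 67.7 CPM in E2 and 286 CPM in placebo members, Sdc4 at 372 and 967 CPM, Thbs1, thrombospondin 1, at 946 and 2242 CPM, and Cdh1, E-cadherin, at 123 and 281 CPM. Within Arg1-poor members Thbs1 lay the other way, at 193 CPM in the E2 library and 4.76 CPM in the placebo library. Over all members Spp1 went the other way and was 2.37-fold higher (2.25 to 2.49). Single members held 35.2% of its E2 and 31.8% of its placebo UMIs. After thinning to 2000 UMIs, Spp1 was found in 34.0% of E2 and 32.8% of placebo members, so the share of members with it hardly differed. It was also higher in C1q macrophages, at 348 CPM in the E2 library and 112 CPM in the placebo library.

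The remaining lists had medians between −0.29 and 0.15. Of 23 alternative activation genes 4 were higher and 7 lower by 1.5-fold, with a median of −0.09. Arg1, which chose the members, is among the 7 lower. Tgm2, transglutaminase 2, was lower at 259 CPM in E2 and 585 CPM in placebo members. The C1q and phagocytic list had 5 of 18 higher and 3 lower, with a median of 0.07. C1qb was 1.86-fold higher (1.72 to 2.004), at 1240 CPM in E2 and 668 CPM in placebo members, and C5ar1, the C5a receptor, was lower at 69.9 and 181 CPM. Chemokine and growth factor receptors had 1 of 20 higher and 4 lower, with a median of −0.17; Nrp1, neuropilin 1, was the higher one at 102 CPM in E2 and 29.2 CPM in placebo members. Checkpoint ligands and inhibitory receptors had 1 of 14 higher and 6 lower, with a median of −0.29. Pdcd1lg2, which encodes the PD-1 ligand PD-L2, was at 18.4 CPM in E2 and 62.8 CPM in placebo members, and Havcr2, which encodes TIM-3, at 75.5 and 174 CPM.

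None of 10 MHC class II genes passed 1.5-fold, with 6 higher and a median of 0.15, which turned to −0.16 with Arg1-led and other members weighted alike. The interferon-gamma list had 1 of 20 higher and 3 lower, with a median of −0.21, and the type I interferon list 0 of 21 higher and 3 lower, with a median of −0.20, or 0.082 with that weighting. Both interferon medians were near 0 within Arg1-rich members, at 0.01 each. The interferon-gamma median was −0.29 in C1q macrophages, −0.40 in Pf4 Ccl8 macrophages, −0.12 in Ly6c2 monocytes and −0.37 in T cells. The iron list had 2 of 12 higher, with a median of 0.00, and among its genes Blvrb, biliverdin reductase B, was at 279 CPM in E2 and 112 CPM in placebo members. Macrophage transcription factors had 3 of 23 higher and 3 lower, with a median of −0.11; beside Hif1a, Stat6 was lower at 45.9 CPM in E2 and 78.7 CPM in placebo members. Of the estrogen receptor list 8 genes were measured, of which 1, the co-repressor gene Nrip1, was lower by 1.5-fold, with a median of −0.28. These genes were lower in the other sets too, with medians of −0.25 in C1q macrophages and −0.17 in Pf4 Ccl8 macrophages. The medians were −0.34 in Ly6c2 monocytes and −0.23 in T cells. Esr1, which encodes the estrogen receptor α, had 9 UMIs in E2 members and 2 UMIs in placebo members, and Esr2 had 0 in both.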

How the data were processed

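The files hold raw counts of UMIs per gene and barcode, deposited by the authors with no normalization. They were made with Cell Ranger 3.1.0 on build mm10, per the submitters' processing notes; the sources used here do not say how barcodes were filtered. UMIs of the rule's genes chose the members, and each set's UMIs were added up and scaled to CPM. Differences are log2 ratios with 10 CPM added and CPM ratios with exact conditional-binomial 95% intervals; shares carry Clopper-Pearson 95% intervals. Both kinds of interval hold counting error alone. As each group is 1 library, there is no test and no p-value. The ratio calculation was tested on simulated data.

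The members, the 23 gene lists and 21 marker lists, and the naming rule were chosen with earlier results of these data known. Named genes had at least 50 CPM in 1 library and 30 UMIs over both, without ribosomal protein, mitochondrially encoded, antigen receptor, Gm and Rik genes and the rule's genes: the 12 highest and 12 lowest between libraries, the 15 highest and 10 lowest against C1q macrophages, the 10 highest and 10 lowest between strata, and up to 6 per list. Many genes stand in more than 1 list, among them Vegfa, Arg1, Hif1a and Pparg, so the lists are not independent. Rule genes that belong to a list, such as Arg1, Mmp12, Csf1r, Cd68 and Retnla, were kept in its counts and medians. C1q macrophages had at least 10 UMIs of C1qa, C1qb and C1qc, and Pf4 Ccl8 macrophages at least 10 of Pf4 and Ccl8. Ly6c2 monocytes had at least 5 of Ly6c2 and at most 4 of C1q; all 3 sets met the members' other conditions with under 10 of Mmp12 and Arg1. T cells had at least 3 UMIs of Cd3 genes and 0 of Adgre1, Csf1r and Cd68. Doublets stayed in the main values and were removed by Scrublet scores (scanpy 1.11.5) as an alternative. Coordinates are from GENCODE M21 on GRCm38, the assembly of mm10. Python 3.11.15, numpy 2.4.6, scipy 1.17.1, pandas 2.3.3 and matplotlib 3.10.9 were used.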

Additional observations from a re-analysis of the deposited data

How the results depend on the processing

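No paired analysis was possible because each group is 1 library. The share of members stayed lower in the E2 library under all 8 alternatives, 2.02- to 2.86-fold of all barcodes and 3.14- to 3.97-fold of gated barcodes. The counts of 259 higher and 557 lower features moved with 1 CPM added (613 and 1135), with 50 CPM added (56 and 115), with Arg1-rich members only (488 and 854) and with Arg1-poor members only (881 and 1044). With members thinned to 5000 UMIs 391 were higher. Scaling by the median gene ratio, which moves every ratio up, gave 42.8% of these features higher, against 31.7%.

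List medians changed sign within Arg1-poor members for arginine (0.18), proteases (0.24), matrix (0.58), receptors (0.086), glycolysis (0.17), MHC class II (−0.25), checkpoints (0.074), oxidative phosphorylation (−0.014) and transcription factors (0.40). Within Arg1-rich members the interferon-gamma (0.015) and type I interferon (0.011) medians did. With a threshold of 20 and with the same mix of Arg1 and Mmp12 members, MHC class II was −0.10 and −0.16 and type I interferon 0.064 and 0.082. Of 140 listed or named genes past 1.5-fold, 39 changed sign within Arg1-poor members, among them Mfge8 (−1.65), Ptgs2 (0.76), Slpi (1.83), Cxcl3 (3.18), Thbs1 (3.78), Ccl17 (−0.56), Inhba (1.43), Ccl8 (0.44) and Arg1 (0.45); other changes of sign were Asgr2 with a threshold of 20 (−1.03), S100a9 without members carrying UMIs of other cell types (0.42) and Ccl8 without its top member (0.46). The causes were not tested. The strata, the top members and the shared barcodes were chosen after seeing the data. With 97 and 131 members and 1 library per group, the spread between mice could not be measured.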
